A study of Mus musculus with 12 samples.

Results

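The blood vessels that grow into a transplanted tumor come from the host, and 10 genes that mark or serve their endothelial lining were followed here: Pecam1, Cdh5, Kdr, Flt1, Tek, Tie1, Eng, Emcn, Esam and Vwf. All probes carrying one of these gene symbols in the platform annotation were taken, which gave 16 of 45135 probes for 10 of 19031 annotated genes. Each gene had at least 1 of its probes among the 18454 probes kept for testing, those brighter than the negative controls on at least 2 of 12 arrays, and 12 of the 16 probes were kept. In the tumors, 9 of the 10 genes were above background on all 10 arrays. In each tumor group 8 of the 10 were called higher than in cultured SCC-7 cells, against 6.86% of kept probes in recurrent and 6.64% in primary tumors. Between recurrent and primary tumors 0 of the 10 passed the test, and so did 0 of the 18454 kept probes.

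Total RNA was profiled on Illumina mouse WG-6 v2 arrays from 5 local recurrences, 5 primary tumors and 2 samples of SCC-7 cells. SCC-7 is a murine squamous cell carcinoma line, grown here in MEM with FCS, and it was the origin of every tumor. Primary tumors arose in the floor of the mouth of BALB/c-nu mice after SCC-7 injection, and each recurrence grew back in the same animal once its primary tumor had been taken out under the microscope. BALB/c-nu mice lack a thymus and with it most T cells. Ages and times of tumor growth are not given in the sources used here, all animals carried the same transplanted line, and nothing states that both SCC-7 samples came from separate cultures, so their spread may be technical. A tumor is a mixture of carcinoma and host cells, and in such bulk RNA fewer endothelial cells and less RNA per endothelial cell cannot be told apart.

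Endothelial cells hold together through junction proteins, among them PECAM-1 and VE-cadherin (Cdh5), and they read growth signals through tyrosine kinase receptors. The VEGF receptors Flt1 and Kdr answer to ligands that tumor cells and macrophages release, and the receptor Tek (TIE2) with its partner Tie1 answers to angiopoietins from mural cells and from the endothelium itself. These signals govern sprouting, permeability and vessel maturation in growing tumors.

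The arrays differed in tissue content before any vessel gene is considered. Detected probes numbered 15406 to 16758 in recurrent tumors, 15043 to 17083 in primary tumors, and 13711 and 13868 in SCC-7 cells. Primary tumor 3 stood apart by lymphoid transcripts, and a list of 6 measured T cell and NK cell genes averaged a log2 level of 10.18 there, against 5.26 to 6.76 in the other tumors. The arrays labelled recurrence 1 and primary tumor 1 stood apart by salivary transcripts, with a 9-gene mean of 5.62 in recurrence 1, the lowest of the 10 tumors, and 14.12 in primary tumor 1, the highest. Results that rest on pairs 1 and 3 are therefore also given without them.

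Promoters of endothelial genes are rich in the core GGAA to which ETS factors bind, so the start regions of 4 of the 10 genes are shown. In SCC-7 cells 2 of them were at background (Emcn, Flt1) and 2 above it, Eng clearly and Kdr by a small margin. RefSeq start regions in the table used (GRCm38.p6), 250 bases before to 50 after a start, were matched for 6 of the 10 genes, and Pecam1, Cdh5, Esam and Vwf were not matched. Each is printed 5′ to 3′ on the strand of the gene, with GGAA, or TTCC where it lies on the opposite strand, in capitals. Emcn is at chr3:137340828-137341127 (plus strand), Flt1 at chr5:147725962-147726261 (minus strand), Eng at chr2:32646345-32646644 (plus strand) and Kdr at chr5:75978406-75978705 (minus strand).
Emcn: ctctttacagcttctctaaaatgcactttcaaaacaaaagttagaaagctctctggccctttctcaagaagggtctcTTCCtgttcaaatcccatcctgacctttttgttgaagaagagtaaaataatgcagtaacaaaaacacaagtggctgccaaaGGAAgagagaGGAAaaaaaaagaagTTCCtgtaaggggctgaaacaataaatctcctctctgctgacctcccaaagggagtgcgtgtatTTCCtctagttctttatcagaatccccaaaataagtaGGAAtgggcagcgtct
Flt1: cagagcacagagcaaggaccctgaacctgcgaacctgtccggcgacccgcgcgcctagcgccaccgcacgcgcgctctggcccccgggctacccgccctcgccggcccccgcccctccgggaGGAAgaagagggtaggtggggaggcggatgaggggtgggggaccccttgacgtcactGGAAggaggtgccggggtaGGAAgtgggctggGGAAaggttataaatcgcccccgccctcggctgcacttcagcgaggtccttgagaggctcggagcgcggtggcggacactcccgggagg
Eng: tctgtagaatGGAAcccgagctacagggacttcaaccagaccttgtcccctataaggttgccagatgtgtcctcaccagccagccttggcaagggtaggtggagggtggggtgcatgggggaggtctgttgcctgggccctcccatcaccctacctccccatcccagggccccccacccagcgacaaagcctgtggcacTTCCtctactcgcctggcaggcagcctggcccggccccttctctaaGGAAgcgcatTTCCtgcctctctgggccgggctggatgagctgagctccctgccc
Kdr: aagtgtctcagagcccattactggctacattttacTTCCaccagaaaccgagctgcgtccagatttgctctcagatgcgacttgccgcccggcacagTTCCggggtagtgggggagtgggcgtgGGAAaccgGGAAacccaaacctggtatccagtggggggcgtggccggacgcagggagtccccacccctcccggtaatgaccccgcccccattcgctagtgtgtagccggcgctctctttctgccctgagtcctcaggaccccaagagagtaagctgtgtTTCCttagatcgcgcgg

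GGAA occurred 6 times for Emcn, 4 for Flt1, 4 for Eng and 5 for Kdr, and 9 times for Tie1 and 2 for Tek, counting both strands. Of 32851 start regions of the same length, 96.0% held GGAA, with a median of 3 matches, so its presence did not set these genes apart. The longer form AGGAAG, which contains GGAA, occurred 2 times each for Emcn, Flt1, Eng and Tie1 and was not found in the windows of Kdr and Tek, against 35.4% of all start regions with at least 1. GATAAG, the letters that GATA factors read, was found in 1 copy for Tek and in none of the other 5 windows, against 7.44% of all regions. The letters alone did not separate the pair at background in SCC-7 cells from the pair above background there, and no match was tested for function.

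The junction proteins gave some of the highest tumor levels relative to the cells they grew from. Pecam1 encodes PECAM-1 (CD31), an adhesion molecule of endothelial junctions that platelets and leukocytes also carry. Its brightest probe (ILMN_2700982) had normalized log2 intensities of 8.07, 8.26, 7.41, 8.29 and 7.85 in recurrences 1 to 5, against 7.81, 7.46, 9.85, 7.79 and 7.92 in primary tumors 1 to 5, and 4.89 and 5.08 in SCC-7 cells. Both SCC-7 values were not above background, primary tumor 3 lay far above the other tumors, and the tumor groups overlapped. A fold against SCC-7 cells at background is given as a lower bound, computed from the lowest signal at which a probe counted as detected on each SCC-7 array, log2 5.70 and 5.66. Pecam1 was at least 4.92-fold higher in recurrent tumors than in SCC-7 cells and at least 5.62-fold higher in primary tumors (adjusted p = 0.00264 and 0.00176 from limma). A second probe, ILMN_3147074, was also at background in SCC-7 cells and was at least 1.58-fold higher in recurrent and at least 2.19-fold higher in primary tumors, with adjusted p = 0.0556 and 0.0232 from limma, so that it passed the threshold in primary tumors alone. The direct comparison of recurrent with primary tumors for this probe gave a log2 difference of -0.47 (95% interval -1.58 to 0.65, adjusted p = 0.933 from limma). That interval is too wide to tell whether the groups differed in this respect. The third probe, ILMN_1226690, was above background in primary tumor 3 only and was not kept.

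Cdh5 encodes VE-cadherin, the cadherin of endothelial adherens junctions and the most endothelial-restricted of the adhesion genes followed. It had log2 levels of 8.04, 8.22, 7.02, 8.05 and 9.48 in recurrences 1 to 5, against 7.28, 7.98, 8.53, 8.64 and 8.05 in primary tumors 1 to 5, and 4.73 and 4.74 in SCC-7 cells (ILMN_2771550). The highest and the lowest tumor were both recurrences, 5 and 3, and all 10 tumors lay far above both SCC-7 samples. Cdh5 was at least 5.59-fold higher in recurrent tumors and at least 5.36-fold higher in primary tumors than in the cultured cells (adjusted p = 0.00112 and 0.00124 from limma). The second probe, ILMN_2866951, followed the first, with bounds of at least 2.52-fold and 2.46-fold (adjusted p = 0.0106 and 0.0119 from limma).

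Esam, an immunoglobulin-type adhesion molecule of endothelial tight junctions that platelets also carry, had log2 levels of 10.25, 10.03, 9.27, 10.12 and 9.81 in recurrences 1 to 5. Primary tumors 1 to 5 had 9.52, 9.87, 10.32, 9.76 and 10.14, and SCC-7 cells 5.83 and 5.10 (ILMN_2690839). Only 1 of the 2 SCC-7 samples, the first, was above background. With the second held at its detection limit, Esam was at least 17.8-fold higher in recurrent tumors and at least 18.1-fold higher in primary tumors (adjusted p = 3.02e-06 and 3.59e-06 from limma on the measured values).

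Emcn encodes endomucin, a sialoglycoprotein on the surface of capillary and venous endothelium, and its level was even among the tumors. Recurrences 1 to 5 had log2 levels of 9.29, 8.99, 8.72, 8.71 and 8.88, against 8.67, 9.25, 9.20, 8.71 and 8.95 in primary tumors 1 to 5, and 4.46 and 4.50 in SCC-7 cells (ILMN_1259365). The 10 tumors lay within 0.62 log2 units of each other, with SCC-7 cells at background. Emcn was at least 9.44-fold higher in recurrent tumors and at least 9.7-fold higher in primary tumors (adjusted p = 4.67e-07 and 5.63e-07 from limma).

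**Figure D1:**
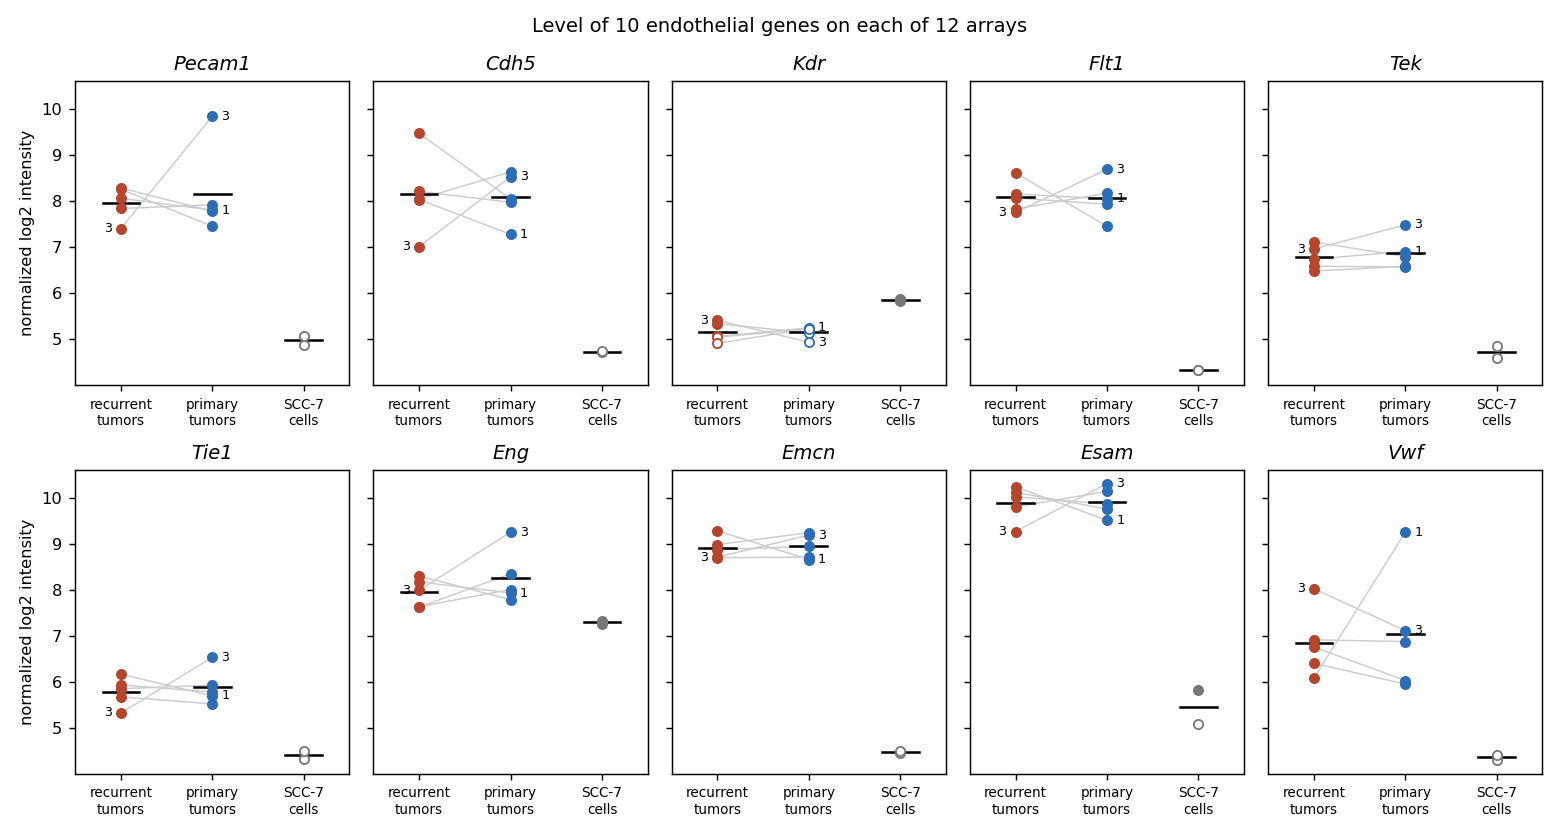
Normalized log2 intensity (vertical axis) of the brightest kept probe of each of 10 endothelial genes in 5 recurrent tumors, 5 primary tumors and 2 SCC-7 samples. Filled points were above background and open points were not, gray lines join tumors of 1 animal, black bars are group means, and the numbers 1 and 3 mark primary tumors 1 and 3 and recurrence 3. In 9 of 10 panels all tumors lie above both SCC-7 samples, and in the Kdr panel all lie below.

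The probes of the VEGF receptors gave unlike results, and the reading for Kdr rests on 1 dim probe. Flt1 (VEGFR1), which binds VEGF-A, VEGF-B and placental growth factor, had log2 levels of 8.17, 7.83, 7.76, 8.07 and 8.62 in recurrences 1 to 5, against 8.05, 8.18, 8.70, 7.94 and 7.46 in primary tumors 1 to 5, and 4.33 in both SCC-7 samples (ILMN_1227926). It was at least 5.33-fold higher in recurrent tumors and at least 5.24-fold higher in primary tumors than in the cultured line (adjusted p = 9.87e-06 and 1.27e-05 from limma). Its other probe, ILMN_2732721, was not above background on any array.

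Kdr (VEGFR2), the receptor that carries most of the mitogenic VEGF-A signal in endothelium, lay near background in the tumors. Its kept probe, ILMN_2665788, had log2 levels of 5.07, 5.05, 5.41, 5.34 and 4.92 in recurrences 1 to 5, against 5.25, 5.24, 4.94, 5.14 and 5.23 in primary tumors 1 to 5, and 5.88 and 5.83 in SCC-7 cells. Only recurrences 3 and 4 and primary tumor 2 were above background among tumors. Both SCC-7 samples were, by a small margin over their detection limits of 5.70 and 5.66. After normalization all 10 tumors lay below both SCC-7 samples, as did 24.2% of all kept probes. Before it, recurrence 3 (intensity 92.1) was above the second SCC-7 sample (90.7). The log2 difference from SCC-7 cells was -0.70 for each tumor group (SE 0.18, adjusted p = 0.0218 in recurrent and 0.0230 in primary tumors from limma), less than 2-fold, and its size is not exact since 7 tumors were at background. The Kdr result depended on the processing. With median scaling the differences were -0.32 and -0.34 (adjusted p = 0.381 and 0.342 from limma), and with the authors' normalized intensities -0.25 and -0.26 (adjusted p = 0.125 and 0.113 from limma). Without background correction they were -0.35 in each group (adjusted p = 0.0387 and 0.0395 from limma). The second Kdr probe, ILMN_2572649, was not above background on any array. A low Kdr level and a probe that reads Kdr poorly cannot be told apart here.

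Tek (TIE2), the angiopoietin receptor, had log2 levels of 6.75, 7.12, 6.96, 6.59 and 6.48 in recurrences 1 to 5, against 6.91, 6.80, 7.49, 6.57 and 6.59 in primary tumors 1 to 5, and 4.86 and 4.60 in SCC-7 cells (ILMN_1220170). It was at least 2.15-fold higher in recurrent tumors and at least 2.29-fold higher in primary tumors than in the cultured line (adjusted p = 0.000339 and 0.000245 from limma). Tie1, an orphan receptor that pairs with TIE2, had log2 levels of 6.17, 5.86, 5.33, 5.94 and 5.68 in recurrences 1 to 5, against 5.70, 5.94, 6.54, 5.78 and 5.53 in primary tumors 1 to 5, and 4.32 and 4.50 in SCC-7 cells (ILMN_2928560). Tie1 in recurrence 3 and primary tumor 5 was below both SCC-7 detection limits, log2 5.70 and 5.66, and in the other tumors around or above them. The bounds for Tie1 were therefore small, at least 1.09-fold in recurrent and at least 1.16-fold in primary tumors. The measured difference passed the test all the same (adjusted p = 0.00647 and 0.00432 from limma). Without background correction the Tie1 difference was 0.73 and 0.79 log2 units, under 2-fold.

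Eng encodes endoglin, a co-receptor for ligands of the TGF-β family in activated endothelium that stromal and some tumor cells also express. Unlike most of the others it was above background in SCC-7 cells. Recurrences 1 to 5 had log2 levels of 8.18, 7.63, 8.0, 7.64 and 8.31, against 7.94, 8.35, 9.26, 8.01 and 7.79 in primary tumors 1 to 5, and 7.27 and 7.33 in SCC-7 cells (ILMN_1229161). Each of the 10 tumors was above both SCC-7 samples, as for 15.0% of kept probes. The differences of 0.65 ± 0.35 in recurrent tumors and 0.97 ± 0.35 in primary tumors (log2, SE) did not pass the test (adjusted p = 0.225 and 0.0771 from limma).

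Vwf encodes von Willebrand factor, the clotting glycoprotein that endothelial cells and platelets store and release. Its log2 levels were 6.08, 6.76, 8.03, 6.41 and 6.92 in recurrences 1 to 5, against 9.26, 6.04, 7.12, 5.96 and 6.88 in primary tumors 1 to 5, and 4.31 and 4.42 in SCC-7 cells (ILMN_2519673). Primary tumor 1 was the highest tumor, followed by recurrence 3, and the rest lay between 5.96 and 7.12. Vwf was at least 2.24-fold higher in recurrent and at least 2.59-fold higher in primary tumors than in the cultured line (adjusted p = 0.0432 and 0.0313 from limma). The call in recurrent tumors was lost when recurrence 2, 3, 4 or 5 was left out (adjusted p = 0.0656, 0.0804, 0.0562 and 0.0727 from limma), and without primary tumor 1 the number of genes called in primary tumors stayed at 8. The second Vwf probe, ILMN_1257065, was not above background on any array.

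Counted over the genes, 8 of 10 were higher and 0 lower in recurrent tumors than in SCC-7 cells, where a call takes a 2-fold difference and an adjusted p under 0.05, against 6.86% of all kept probes called higher and 5.02% called lower. In primary tumors it was again 8 higher and 0 lower, against 6.64% of kept probes called higher and 5.74% called lower. Both comparisons share the SCC-7 arrays and are not independent of each other. The genes not called were Kdr and Eng in each. The median log2 difference of the 10 genes was 2.73 in recurrent and 2.93 in primary tumors, or 1.73 and 1.88 with 7 genes held at their lower bounds, beside -0.11 and -0.15 over all kept probes. All 10 tumors were above both SCC-7 samples for 9 genes, against 15.0% of kept probes. For Tie1 this rests on SCC-7 values at background, since recurrence 3 and primary tumor 5 were below both SCC-7 detection limits. Leaving out primary tumor 3 kept the count of called genes in primary tumors at 8, and with either SCC-7 sample left out, 6 genes were called in recurrent tumors and 6 or 7 in primary tumors, Tie1 and Vwf being those lost. The lone SCC-7 sample was then assumed to vary like the tumors.

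**Figure D2:**
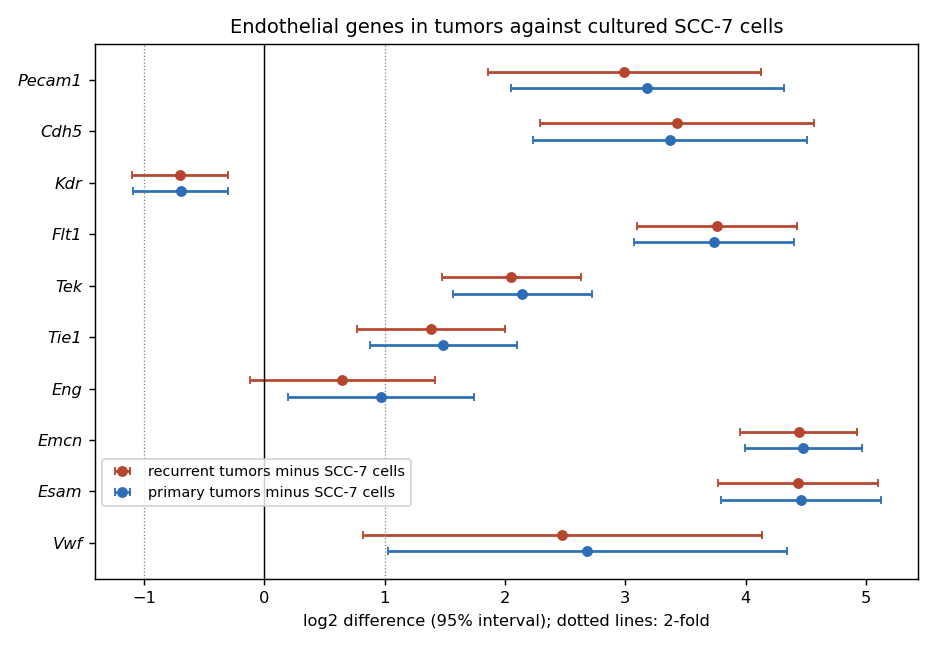
Log2 difference from SCC-7 cells (horizontal axis) of each gene in recurrent and primary tumors, with 95% intervals from limma. Measured values are drawn, and those of the 7 genes at background in SCC-7 cells, and of Esam with 1 SCC-7 sample at background, are not exact sizes. The intervals of both tumor groups overlap for all 10 genes.

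The study set out to find genes that change in local recurrence, and the vessel genes were compared in that contrast with the animal as a block. At an adjusted p under 0.05 in limma, 0 of 10 genes were called, against 0% of all kept probes, and 0 of 10 had an unadjusted p under 0.05, against 602 of 18454 kept probes. By the study's selection over pairs, set here at 2-fold the same way in at least 3 of 5 pairs, 0 genes were higher and 0 lower in recurrences, beside 0.997% and 0.341% of kept probes. The log2 differences ran from -0.32 for Eng to 0.06 for Cdh5, 2 positive and 8 negative, with a median of -0.06 beside 0.03 over all kept probes.

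The intervals say how large a change these 5 pairs leave possible. They were narrow for Tek, at -0.09 (95% interval -0.49 to 0.31), and Emcn, at -0.04 (-0.50 to 0.42). Esam at -0.03 (-0.67 to 0.62), Tie1 at -0.10 (-0.72 to 0.52), Flt1 at 0.03 (-0.68 to 0.73) and Eng at -0.32 (-0.99 to 0.35) also had intervals within 1 log2 unit, so that a mean change of 2-fold either way lay outside them. For Eng a 2-fold drop lay only just outside, and Tie1 levels close to background make its interval a weak limit. The difference of Kdr was -0.003, but with 7 of 10 tumors at background its interval (-0.42 to 0.41) sets no limit on a change. For Cdh5 at 0.06 (-0.94 to 1.06), Pecam1 at -0.19 (-1.30 to 0.92) and Vwf at -0.21 (-1.63 to 1.22) a 2-fold change lay within the interval in at least 1 direction. Adjusted p-values from limma were 0.933 or more for all 10, but 0.933 was also the smallest adjusted p over all kept probes. These adjusted values therefore do not set the 10 genes apart from the rest of the array.

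Pair 3 carried most of the negative differences. In it Pecam1, Cdh5, Tie1, Eng and Esam were lower in the recurrence by 2-fold or more, with log2 differences of -2.44, -1.52, -1.21, -1.26 and -1.04, and Flt1 was lower at -0.93. In the other pairs these genes mostly moved less. Pecam1 differed by 0.26, 0.80, 0.51 and -0.08 in pairs 1, 2, 4 and 5, and Cdh5 by 0.76, 0.24, -0.59 and 1.43. Without pair 3, 7 genes were positive and 3 negative, with a median of 0.12, so the sign of the median rested on that pair. Vwf went its own way, at -3.17 in pair 1 and between 0.04 and 0.91 in the others, with a mean of 0.53 without pair 1. Without pair 1, 1 gene had an unadjusted p under 0.05 and 0 were called, and with any other pair left out 0 genes passed either threshold.

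**Figure D3:**
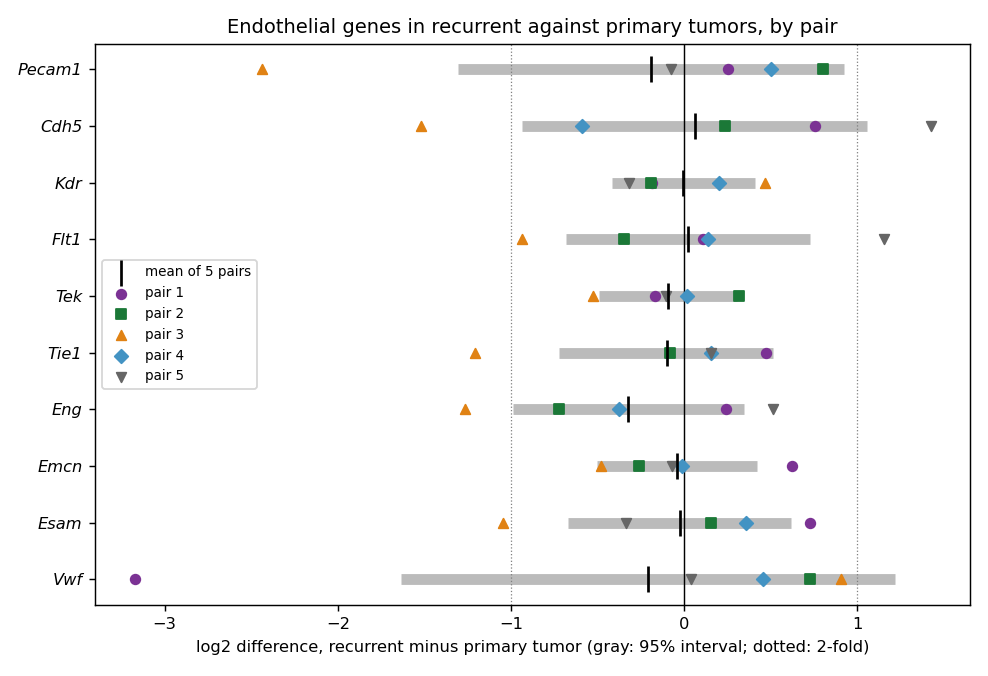
Log2 difference of recurrent minus primary tumor (horizontal axis) for each gene, with 1 symbol per pair, the mean as a black tick and its 95% interval in gray. The means lie between -0.32 and 0.06, pair 3 lies to the left for 8 of 10 genes, and the Vwf value of pair 1 is -3.17.

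The 10 genes did not vary alike among the tumors. Over all 10 tumors the SD was 1.02 for Vwf, 0.69 for Pecam1 and 0.69 for Cdh5, larger than for 93.5%, 83.3% and 83.1% of kept probes. Emcn was among the steadier probes, with an SD of 0.24, and the SD of 0.17 for Kdr was that of a probe at background in 7 of 10 tumors. The remaining 5 genes lay between 0.31 and 0.48, around the median SD of 0.38 over all kept probes. Primary tumor 3 was the highest tumor for 6 genes, Pecam1, Flt1, Tek, Tie1, Eng and Esam, and recurrence 3 the lowest for 4, Pecam1, Cdh5, Tie1 and Esam. Averaged over the 10 genes, each centred on its tumor mean, primary tumor 3 stood at 0.59, against -0.21 in recurrence 3 and -0.17 to 0.09 in the other 8 tumors.

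In primary tumor 3 lymphoid genes were high as well. Cd79b, a subunit of the B cell receptor, was at 13.34 there, against 5.73 to 9.23 in the other tumors, and Ccl21a, a chemokine of lymphatic vessels and high endothelial venules, at 14.09, against 4.35 to 10.17. Glycam1, a mucin-like ligand made by high endothelial venules and also by some glands, was at 12.74, against 4.26 to 10.77 in the others. Acta2, the actin of smooth muscle and mural cells, was highest there too, at 12.87 against 9.99 to 12.19. Their part in the vessel gene levels was not tested. Without pair 3 the comparisons of recurrent with primary tumors gave 0 called genes as before.

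**Figure D4:**
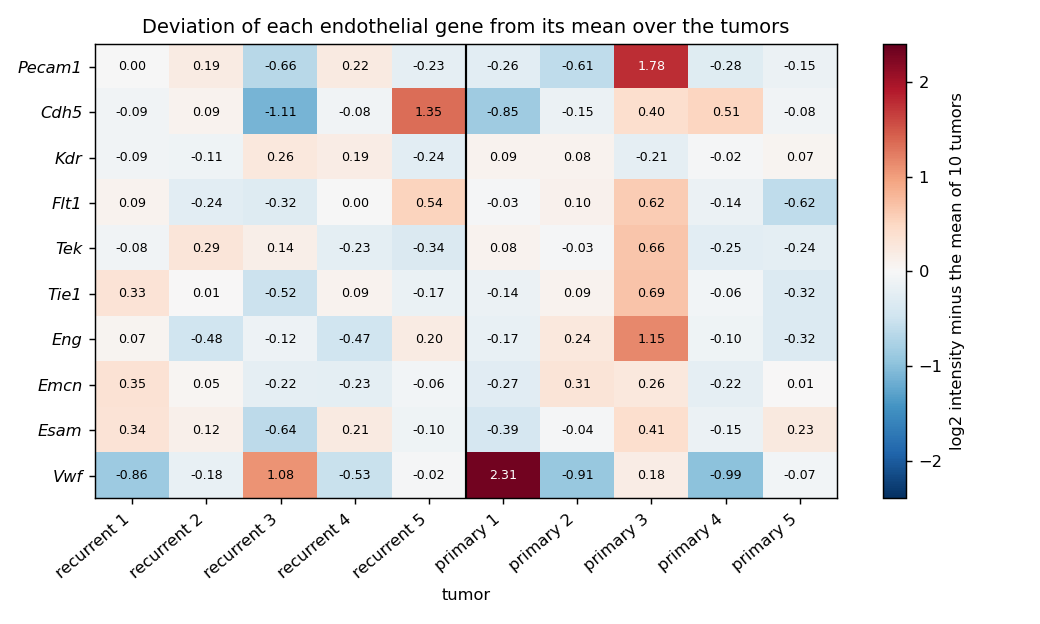
Deviation of each gene (rows) from its own mean over 10 tumors, in log2 units, with recurrent tumors left and primary tumors right of the black line. Primary tumor 3 is red for 9 of 10 genes, and Vwf departs from the other genes in primary tumor 1 (2.31) and recurrence 3 (1.08).

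Across tumors, each gene was set against the mean of the other 9 as a description over 10 tumors that share animals in pairs. Pearson's r was 0.79 for Pecam1, 0.74 for Eng, 0.71 for Tie1, 0.69 for Flt1 and 0.59 for Tek, and lower for Esam (0.35), Emcn (0.34) and Cdh5 (0.06). These values leaned on primary tumor 3. Without it, an alternative added with these values known, r over 9 tumors was 0.07 for Pecam1, -0.01 for Eng, 0.19 for Tie1 and -0.26 for Tek, and 0.50 for Flt1, and Spearman's rho over all 10 tumors was 0.20 to 0.55 for these 5 genes. Over all 10 tumors r was negative for Vwf at -0.31 and, with its level near background, for Kdr at -0.70. Of the single pairs of genes, Pecam1 and Tie1 had the highest r at 0.80 (Spearman's rho 0.65), and Cdh5 and Kdr the lowest at -0.80 (rho -0.81).

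Of 10336 other genes, those most alike to the mean of the 10 were Rnf144a (r = 0.96), Osmr (0.96), Rasl12 (0.96), Myzap (0.95), Rtn2 (0.95), Ebf3, Tnfaip3 and Cyp1b1 (0.94 each) over 10 tumors. The likeness was weaker without the 2 tumors farthest from the median. Without primary tumor 3 and recurrence 3, r was 0.77 for Rnf144a, 0.72 for Osmr and 0.89 for Rasl12. When Vwf was left out of the mean, a choice made after its values were seen, the most alike gene was Grem1 (r = 0.96), a secreted BMP antagonist of stromal cells. It was followed by Sox18 (r = 0.95), a transcription factor of endothelium, Angpt2 (0.94), the angiopoietin that endothelial cells release, Dbnl (0.94), and Cldn5 (0.94), the main claudin of endothelial tight junctions, with Lpar4, Jpt1 and Supt16 at 0.93 each. Without the same pair of tumors r was 0.85 for Grem1, 0.67 for Sox18, 0.75 for Angpt2 and 0.54 for Cldn5.

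The genes most like Vwf alone, a profile also chosen after its values were seen, were Ociad2, Macrod1 and Shroom3 (r = 0.97 each), then Tmc4, Cdh1, B3galt5, Flvcr2 and Cmas (0.96 each). For Ociad2 and for Cdh1, the cadherin of epithelial cells, r was 0.84 and 0.83 without primary tumor 1 and recurrence 3. Cdh1 was at 8.21 in primary tumor 1 and 6.80 in recurrence 3, against 4.91 to 6.39 in the other tumors, and a 7-gene squamous epithelial list averaged 8.77 in primary tumor 1, against 7.07 in recurrence 3 and 5.25 to 7.55 over the other tumors. Salivary and adipocyte lists were also highest in primary tumor 1, at 14.12 and 7.27. In recurrence 3 they were at 12.59 and 5.02, within the range of the other tumors, 5.62 to 12.70 and 4.70 to 6.62. Platelets are another textbook source of Vwf. A 4-gene platelet list averaged 6.04 in primary tumor 1 and 6.15 in recurrence 3, against 5.79 to 6.67 in the other tumors, and Pf4, the 1 listed gene above background in all tumors, was at 8.52 and 8.90, against 6.97 to 9.11. The part of other tissue or of platelets in the Vwf levels was not tested.

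Genes of the same pathways were counted from lists put together for this purpose. Of 14 vessel ligands, 6 had a kept probe. Vegfa, the main ligand of the VEGF receptors, was lower in tumors than in SCC-7 cells, with log2 levels of 8.90, 8.23, 7.84, 8.70 and 9.15 in recurrences 1 to 5, against 8.84, 8.43, 7.72, 8.83 and 8.18 in primary tumors 1 to 5, and 10.38 and 10.58 in SCC-7 cells. The differences were -1.92 and -2.08 (SE 0.37, adjusted p = 0.00525 and 0.0032 from limma). All tumors were below both SCC-7 samples, as for 24.2% of kept probes. For the receptor Flt1 all were above, as for 15.0% of kept probes. Vegfb, another Flt1 ligand, was also lower, by -1.27 and -1.34 (adjusted p = 0.012 and 0.00966 from limma). Pdgfb, which endothelial cells use to recruit pericytes, was at least 6.42-fold and 6.61-fold higher, and Vegfc, with differences of -0.81 in recurrent and -0.92 in primary tumors, did not pass (adjusted p = 0.0782 and 0.0525 from limma).

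Of 15 co-receptors and receptor partners, 12 were measured, and 7 were higher and 1 lower in each tumor group than in SCC-7 cells. Ednrb, an endothelin receptor, was at least 33.1-fold higher in recurrent and at least 21.4-fold higher in primary tumors, and Robo4, an endothelial guidance receptor, at least 9.87-fold and 11.4-fold. Nrp1, the neuropilin that binds VEGF-A beside its receptors, was higher by 4.67 and 4.38 log2 units (adjusted p = 2.94e-06 and 4.82e-06 from limma). Ramp2, a partner of the adrenomedullin receptor, was at least 9.4-fold and 11.6-fold higher, while Unc5b, a netrin receptor, was the 1 lower gene, at -2.37 and -2.52.

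Most of the other endothelial surface genes and transcription factors measured were higher in tumors. Of 20 surface and junction genes 14 were measured, and 8 were higher in recurrent tumors and 9 in primary tumors, with 0 lower in either. Egfl7, a secreted protein of endothelium, was higher by 4.46 and 4.93 log2 units and Plvap, of endothelial fenestrae, by 4.40 and 4.50, each with 1 of 2 SCC-7 samples above background, while Mmrn2 was at least 7.01-fold and 8.19-fold and Icam2 at least 3.59-fold and 5.7-fold higher. Of 15 transcription factors 12 were measured, with 7 higher and 0 lower in each group. Lmo2, a partner of vessel and blood cell factors, was higher by 4.88 and 5.09, also with 1 of 2 SCC-7 samples above background, and Klf2, which responds to flow, by 3.33 and 3.47, with Hhex at least 6.05-fold and 7.29-fold and Sox18 at least 4-fold and 4.54-fold higher.

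Genes of neighbouring cell types were counted beside them. Of 10 measured pericyte and smooth muscle genes, 2 were higher in recurrent tumors and 3 in primary tumors, Acta2 by 4.55 and 5.16 log2 units, Mcam, which endothelium also expresses, by at least 4.24-fold and 4.79-fold, and Rgs5 in primary tumors alone (adjusted p = 0.0629 in recurrent and 0.0445 in primary tumors from limma). Rgs5 itself differed between the tumor groups by -0.16, with an adjusted p of 0.965 from limma. Of 4 measured lymphatic genes, Lyve1, which macrophages also carry, was higher in both groups, at least 5.03-fold and 3.09-fold, and Pdpn, already high in SCC-7 cells, differed by 0.35 and 0.17. Of 4 measured platelet genes Pf4, which macrophages can also make, was higher, at least 7.2-fold and 6.5-fold, and Gp1bb was lower in primary tumors by -1.14 (adjusted p = 0.0453 from limma). Of 6 measured macrophage and monocyte genes, 6 were higher in each tumor group, with medians of 4.13 and 3.68 log2 units, above those of the 10 endothelial genes. Of 8 fibroblast genes 4 were higher in each group, of 3 red blood cell genes 2, and of 6 T cell and NK cell genes 1. Squamous epithelial, salivary gland and adipocyte lists had 0 called higher. Of 9 salivary gland genes 8 were nevertheless positive in each group, with medians of 3.17 and 4.43 log2 units. Their mean spread widely over the tumors, from 5.62 to 14.12. A higher level than in SCC-7 cells was thus not particular to the endothelial genes. Between recurrent and primary tumors, 0 genes of any of these lists were called in limma.

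**Figure D5:**
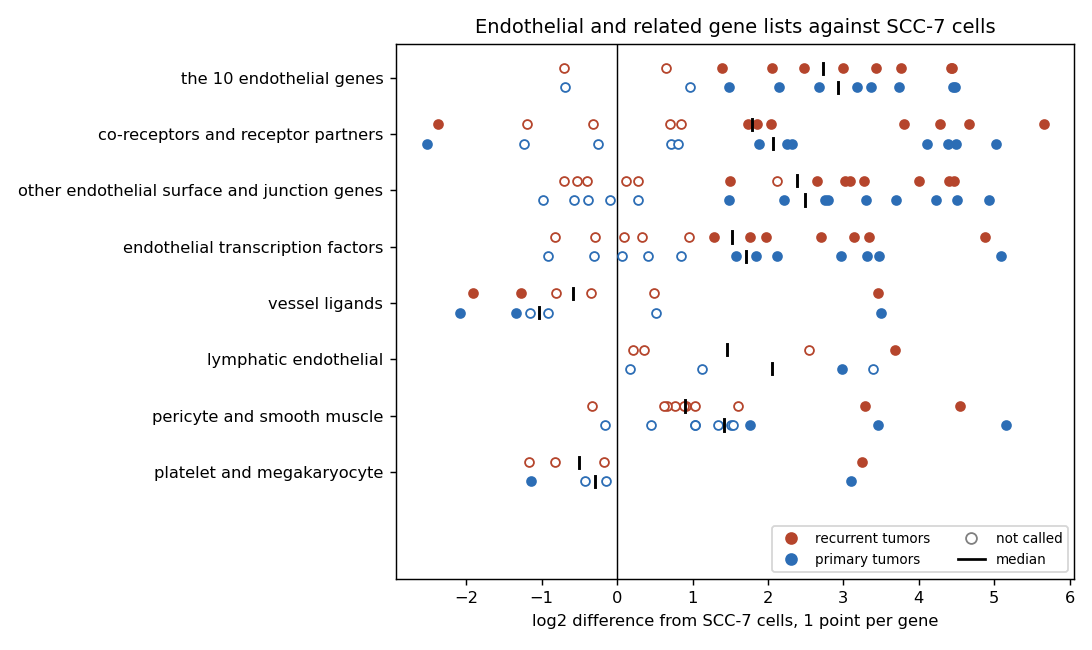
Log2 difference from SCC-7 cells (horizontal axis) for the measured genes of 8 lists, recurrent tumors above primary tumors in each row, filled where called (a 2-fold difference and adjusted p under 0.05), with the median as a black tick. Medians are 2.73 and 2.93 for the 10 endothelial genes and -0.58 and -1.03 for the vessel ligands.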

How the data were processed

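Total RNA of 5 local recurrences, 5 primary tumors and 2 SCC-7 samples had been labelled with biotin and read with Cy3-streptavidin. The authors deposited bead intensity values for each probe without background correction, detection p-values, and a table of normalized intensities whose method is not given in the sources used here. The deposited p-values were not used. Background was modelled from 943 control entries at background intensity (limma 3.58.1, normexp, offset 16, R 4.3.3), leaving out 11 bright ones, and the 12 arrays were quantile normalized and put on a log2 scale. A probe was above background where fewer than 1 in 100 of these controls were as bright (p under 0.01). For a gene with several kept probes, the one with the highest mean over all arrays was used in counts and figures.

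Recurrent tumors were set against primary tumors in limma (lmFit, eBayes), each animal being a fixed block. Each tumor group was compared with SCC-7 cells in 1 fit of 3 groups, a call needing a 2-fold difference and an adjusted p under 0.05, with Benjamini-Hochberg adjustment over 18454 kept probes. The labels give each recurrence the number of a primary tumor and name no animal. A shared number was read as a pair, since the paper describes 5 pairs of primary tumor and recurrence. Across kept probes, the deviations of both tumors of an animal from the group means had correlations of -0.38, 0.03, 0.34, 0.36 and 0.17 for animals 1 to 5. The fits were also run on simulated data with independent noise and no animal effect or detection floor, so their behaviour under those conditions was not tested. Every probe of the 10 genes is named, and of each companion list up to 4 genes with the largest difference from SCC-7 cells. Acta2, Cd79b, Ccl21a, Glycam1, Cdh1, Gp1bb, Pdpn and Unc5b were also named for reasons given beside them or after their values were seen. The 10 genes and the companion lists were chosen with earlier results of these data known. Counts of companion genes are descriptions. The alternatives comprised median scaling, uncorrected background, the normalized intensities of the authors, other filters and gene summaries, other variance models, the block left out or random, the methods' t-test, tumor arrays normalized alone, and each array or pair left out. Those added after the data were seen concern which genes vary alike and the Esam fold. No slide could be taken into account, as none is given in the sources used here. Plots were made with matplotlib 3.10.9. The number of arrays limits the precision.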

Additional observations from a re-analysis of the deposited data

Results flagged for a closer look

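Levels of the 10 genes, their mean and the companion lists were searched for a tumor far from the others of its group in 56 groups of 5 tumors, where chance gives about 1 in 20 groups, and 8 held one. The groups share tumors and genes and are not independent, so the 8 cannot be weighed against that share. In primary tumor 3, Pecam1 stood at 9.85 on the log2 scale, and the next highest primary tumor at 7.92. The mean centred level of the 10 genes was 0.593 there, against 0.037 in the next, and 0.639 without Vwf, against 0. In the same tumor the mean of T cell and NK cell genes was 10.175, against 6.274 in the next. Primary tumor 1 had a squamous epithelial mean of 8.766, against 6.46 in the next primary tumor. Among recurrences, the pericyte and smooth muscle list was low in recurrence 3, at 6.237 against 6.71 in the next, the salivary gland list was low in recurrence 1, at 5.622 against 11.331, and the adipocyte list was high in recurrence 2, at 6.623 against 5.024. Among the single vessel genes only Pecam1 was flagged, in primary tumor 3, and the flagged means of that tumor contain Pecam1. Lymphoid genes were high in the same tumor, and their part in the flagged vessel levels was not tested.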

How the results depend on the processing

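The number of endothelial genes called against SCC-7 cells ranged from 6 to 9 in recurrent and in primary tumors under all alternatives. It was 6 without background correction and with the authors' normalized intensities, where Tie1 fell under 2-fold and Vwf missed the threshold (adjusted p = 0.114 and 0.129 in recurrent, 0.0753 and 0.0886 in primary tumors), 7 with no filter on dim probes and 9 with no fold cutoff, which added Kdr, whose adjusted p was 0.342 or more with median scaling and 0.113 or more with the authors' values. Leaving out 1 array gave 6 to 8. Between recurrent and primary tumors 0 genes were called under every alternative, including the fit with no replicate block (median -0.065) and the methods' t-test, which had 0 of 10 genes and 423 of all probes at an unadjusted p under 0.05 and 0 after adjustment. With 1 pair left out the median ran from -0.192 to 0.123. Signs turned for Kdr with median scaling (0.02) and with the authors' values (0.006), and for Esam with median scaling (0.002). With 1 pair left out the differences ran from -0.44 to 0.37 for Pecam1, -0.28 to 0.46 for Cdh5, -0.12 to 0.075 for Kdr, -0.26 to 0.27 for Flt1, -0.19 to 0.017 for Tek, -0.25 to 0.18 for Tie1, -0.21 to 0.071 for Emcn, -0.22 to 0.23 for Esam and -0.49 to 0.53 for Vwf, and Eng stayed negative. The cause was not tested. Median scaling moved the median of all kept probes against SCC-7 cells to 0.14 in recurrent and 0.08 in primary tumors, with 8 genes called in each. Tumor levels of Kdr and Tie1 lay close to background, which limits both.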
